A study of Mus musculus with 6 samples.

Results

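The 9 genes described here carry or sense calcium and magnesium in the distal nephron: Calb1, Trpv5, Trpv6, S100g, Slc8a1, Atp2b1, Atp2b4, Casr and Trpm6. They were chosen by name, and their values were read from every probe on the array whose transcript accession belongs to one of them, 15 probes in all. All 9 were among the 15309 genes tested. The samples were whole kidneys of male C57BL/6J mice, 3 with the genotype iNampt-conditional knockout and 3 labelled Control, each on 1 single-colour Agilent array. Nampt encodes the rate-limiting enzyme of NAD salvage, and the series title places its loss in the renal proximal tubules. The labels used here do not give the Cre driver, the alleles that the controls carry or the age of the animals. The title also names diabetic nephropathy, and the labels name no diabetic treatment for either group.

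Most filtered calcium is taken back passively before the distal nephron, whereas the distal convoluted and connecting tubules reclaim the remainder through the cells, under the control of parathyroid hormone and vitamin D. Calcium enters from the urine through TRPV channels, is carried across the cytosol by calbindins, and leaves on the blood side through a sodium-calcium exchanger and plasma membrane calcium pumps. Magnesium enters the distal convoluted tubule through TRPM6. The calcium-sensing receptor, encoded by Casr and best known in the kidney from the thick ascending limb, reads calcium on the blood side and restrains its uptake there.

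None of the 9 genes passed a Benjamini-Hochberg adjusted p of 0.05 over all genes tested by limma (0 of 9, where 0.17% of all genes passed, 0.105% higher and 0.0653% lower). At an unadjusted p under 0.05 there were 2 of 9, both lower in the knockouts, against 12.8% of all genes in either direction and 6.13% lower. These were Casr and Atp2b4, which encodes a calcium pump, and both were lower, by 21.9% for Casr and 20.4% for Atp2b4, in the knockout kidneys. They were also the only members of the 9 whose groups did not overlap, with all 3 knockouts below all 3 controls, an arrangement found in 10.5% of all genes. No member had all knockouts above all controls, as 9.04% of all genes did, and 19.5% of all genes did not overlap in one direction or the other. The entry channels, the calbindins, the exchanger, the pump gene Atp2b1 and Trpm6 overlapped between the groups. Of the 9 differences 8 were below 0, as were 52.9% of all genes, and their median was -0.12 on the log2 scale beside -0.0077 for all genes tested. In whole kidney, fewer cells of a type and less RNA per cell cannot be told apart.

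Vitamin D acts on several of these genes through its receptor, which binds paired hexamers close to AGGTCA in sequence. The 250 bases before the annotated start are shown for the channel pair, for S100g as the calbindin most tied to vitamin D, and for both genes whose groups did not overlap, from the RefSeq table of mouse build GRCm38.p6. Each reads 5′ to 3′ along the gene, and capitals mark AGGTCA (the hexamer), its variant AGTTCA and the TATA box TATAAA where they occur, on either strand.
Trpv5 (chr6:41680724-41680973, minus strand): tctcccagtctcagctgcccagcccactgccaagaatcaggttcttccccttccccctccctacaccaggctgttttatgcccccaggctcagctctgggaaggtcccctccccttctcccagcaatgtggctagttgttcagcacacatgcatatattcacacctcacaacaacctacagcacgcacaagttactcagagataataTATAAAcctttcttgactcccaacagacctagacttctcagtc
Trpv6 (chr6:41636406-41636655, minus strand): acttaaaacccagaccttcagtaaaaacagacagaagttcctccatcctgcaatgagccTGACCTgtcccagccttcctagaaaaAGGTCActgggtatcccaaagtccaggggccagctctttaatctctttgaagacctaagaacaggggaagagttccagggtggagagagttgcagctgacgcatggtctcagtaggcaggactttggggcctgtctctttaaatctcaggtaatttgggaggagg
S100g (chrX:162964600-162964849, minus strand): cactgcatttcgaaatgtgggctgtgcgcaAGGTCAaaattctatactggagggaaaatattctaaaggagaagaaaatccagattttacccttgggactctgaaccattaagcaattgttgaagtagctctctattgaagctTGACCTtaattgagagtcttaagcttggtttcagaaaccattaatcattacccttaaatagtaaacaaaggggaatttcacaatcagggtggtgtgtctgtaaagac
Casr (chr16:36562135-36562384, minus strand): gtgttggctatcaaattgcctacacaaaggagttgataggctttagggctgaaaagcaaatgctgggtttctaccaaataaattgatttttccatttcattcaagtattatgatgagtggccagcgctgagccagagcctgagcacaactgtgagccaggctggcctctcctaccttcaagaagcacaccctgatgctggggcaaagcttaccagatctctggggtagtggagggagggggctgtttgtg
Atp2b4 (chr1:133753748-133753997, minus strand): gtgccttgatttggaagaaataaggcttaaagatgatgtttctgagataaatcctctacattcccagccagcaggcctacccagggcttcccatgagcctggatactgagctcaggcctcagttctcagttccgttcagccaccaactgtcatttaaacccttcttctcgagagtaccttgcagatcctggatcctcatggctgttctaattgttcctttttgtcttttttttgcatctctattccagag
The letters AGGTCA or their reverse complement TGACCT stood in the windows of Trpv6 and S100g, at 2 places in each, and in 14.0% of all 32851 windows of this length. AGTTCA (reverse complement TGAACT) stood in none of the members' 9 windows and in 11.8% of all windows. A direct repeat of these hexamers spaced by 3 bases was found in 0 of the 9 and in 0.0122% of all. TATAAA (reverse complement TTTATA) stood in the Trpv5 window, 43 bases before the start, and in 12.4% of all windows. The windows of Casr and Atp2b4 held none of these letters, each of which was absent from most windows of this length. A match describes letters and not a bound site. The table matched 8 of the 9 genes, and Calb1 is named only.

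The values below are log2 signals relative to the 75th percentile of each array, so that 0 is the level of that percentile, and levels are not compared between genes. Every one of the 9 was well above background on all 6 arrays by the probe used. Nampt itself fell by 1.06 ± 0.099 log2 units (SE), with an adjusted p of 0.0431 by limma. It stood at 1.80, 1.502 and 1.53 in knockouts 1, 2 and 3, against 2.78, 2.59 and 2.65 in controls 1, 2 and 3. That call was lost in 8 of 18 alternative settings. All arrays lay on 1 slide, per the file headers. Its first row held knockout 1 beside the 3 controls, and the second row the other knockouts. Between 57.3% and 63.3% of spots were well above background and none was saturated. The lowest signal detected was 18.5 to 20.9 units in the first row, and 29.6 and 32.2 units in the second. The labels number the mice 1 to 3 in each group, and 3 arrays a group limit the precision.

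The entry channels had differences of opposite sign, and neither passed. Trpv5, the main apical calcium channel of the kidney, was at -1.26, -1.74 and -1.88 in knockouts 1, 2 and 3, against -1.59, -1.48 and -1.35 in controls 1, 2 and 3. Knockout 1 thus lay above every control and knockouts 2 and 3 below every control. The difference was -0.15 ± 0.17 (SE; 95% confidence interval -0.56 to 0.26; adjusted p = 0.763). Within the first row of the slide, where knockout 1 stands alone against the 3 controls, it turned to 0.21. Without knockout 1 it was -0.34 and without knockout 3 it was -0.029. Trpv6, its close relative and best known from the intestine, was at -2.01, -1.95 and -2.11 in the knockouts, against -2.03, -2.22 and -2.27 in the controls. It was the 1 member of 9 with a difference above 0, at 0.15 ± 0.082 (interval -0.052 to 0.35; adjusted p = 0.517), and control 1 lay within the range of the knockouts. No protein-coding gene separates the pair on chromosome 6 in the RefSeq table. Whether either probe also binds the other's transcript was not tested.

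The calbindins, which buffer and shuttle calcium through the cell, showed no difference beyond the spread of the controls. Calb1, which also serves as a marker of the distal convoluted and connecting tubules, was at 0.69, 0.65 and 0.62 in the knockouts, against 0.50, 0.77 and 1.06 in the controls. The knockouts lay close together inside the range of the controls, with an SD of 0.035 against 0.28 in the controls. The difference was -0.12 ± 0.14 (interval -0.47 to 0.22; adjusted p = 0.772), and without control 3 it was 0.017. S100g, the smaller calbindin, was at 7.54, 7.60 and 7.46 in the knockouts, against 7.49, 7.48 and 7.78 in the controls. Here too control 3 was the highest array, and the difference of -0.052 ± 0.096 (interval -0.29 to 0.18; adjusted p = 0.866) turned to 0.047 without it. The other S100g probe gave -0.073 ± 0.088.

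Among the genes of the exit step, Slc8a1, which encodes the sodium-calcium exchanger, was at 0.11, -0.039 and 0.063 in the knockouts, against -0.014, 0.11 and 0.16 in the controls. The difference of -0.039 ± 0.068 (interval -0.21 to 0.13; adjusted p = 0.858) was within the spread between animals. The probe used for Slc8a1 is assigned to a non-coding transcript of the gene. Whether it also binds the coding transcripts was not tested. The gene's other probes, assigned to coding transcript variants, gave -0.19 ± 0.15 and -0.39 ± 0.26. The larger size came from a dim probe that was well above background in 1 knockout and all 3 controls. That probe was kept through the controls alone. The mean of the gene's probes, which takes it in, gave -0.21. Atp2b1, the widely expressed calcium pump gene, was the steadiest of the 9, with a range of 0.12 over the 6 arrays. It was at 0.55, 0.58 and 0.64 in the knockouts, against 0.56, 0.59 and 0.67 in the controls. The difference was -0.018 ± 0.053 (interval -0.15 to 0.11; adjusted p = 0.919), and its other probe gave 0.0016 ± 0.075.

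Atp2b4, a further calcium pump gene, was at -1.43, -1.42 and -1.67 in knockouts 1, 2 and 3, against -1.19, -1.15 and -1.19 in controls 1, 2 and 3. The controls agreed within an SD of 0.025 and all 3 knockouts lay below them. The difference was -0.33 ± 0.079 (SE; interval -0.52 to -0.13), or 20.4% less signal, with adjusted p = 0.219. Of its other probes, 1 gave -0.27 ± 0.13 with overlapping groups. The other was detected in 0 of 3 knockouts and in 3 of 3 controls, and so was kept through the controls alone. With each knockout set no lower than the lowest signal detected on its array, the means were 1.22-fold lower in the knockouts. The measured difference was -0.59 ± 0.28 (interval -1.27 to 0.091; adjusted p = 0.462 over probes by limma). The measured means of this probe were -5.07 in the knockouts and -4.48 in the controls, and the arrays overlapped. The lowest signal detected was higher on the arrays of knockouts 2 and 3, and its part in the detection of this probe was not tested. Atp2b4 is also expressed outside the tubule, in smooth muscle among other tissues. The summed signal of 6 markers of mural cells and fibroblasts was 24.8 to 30.7 in the knockouts and 23.1 to 29.5 in the controls, in multiples of the 75th percentile. Tagln made up 48.0% to 53.4% of it, and the groups overlapped without Tagln too. Of the 6 markers 3 were higher and 3 lower. The part of these cells in the Atp2b4 values was not tested.

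**Figure D1:**
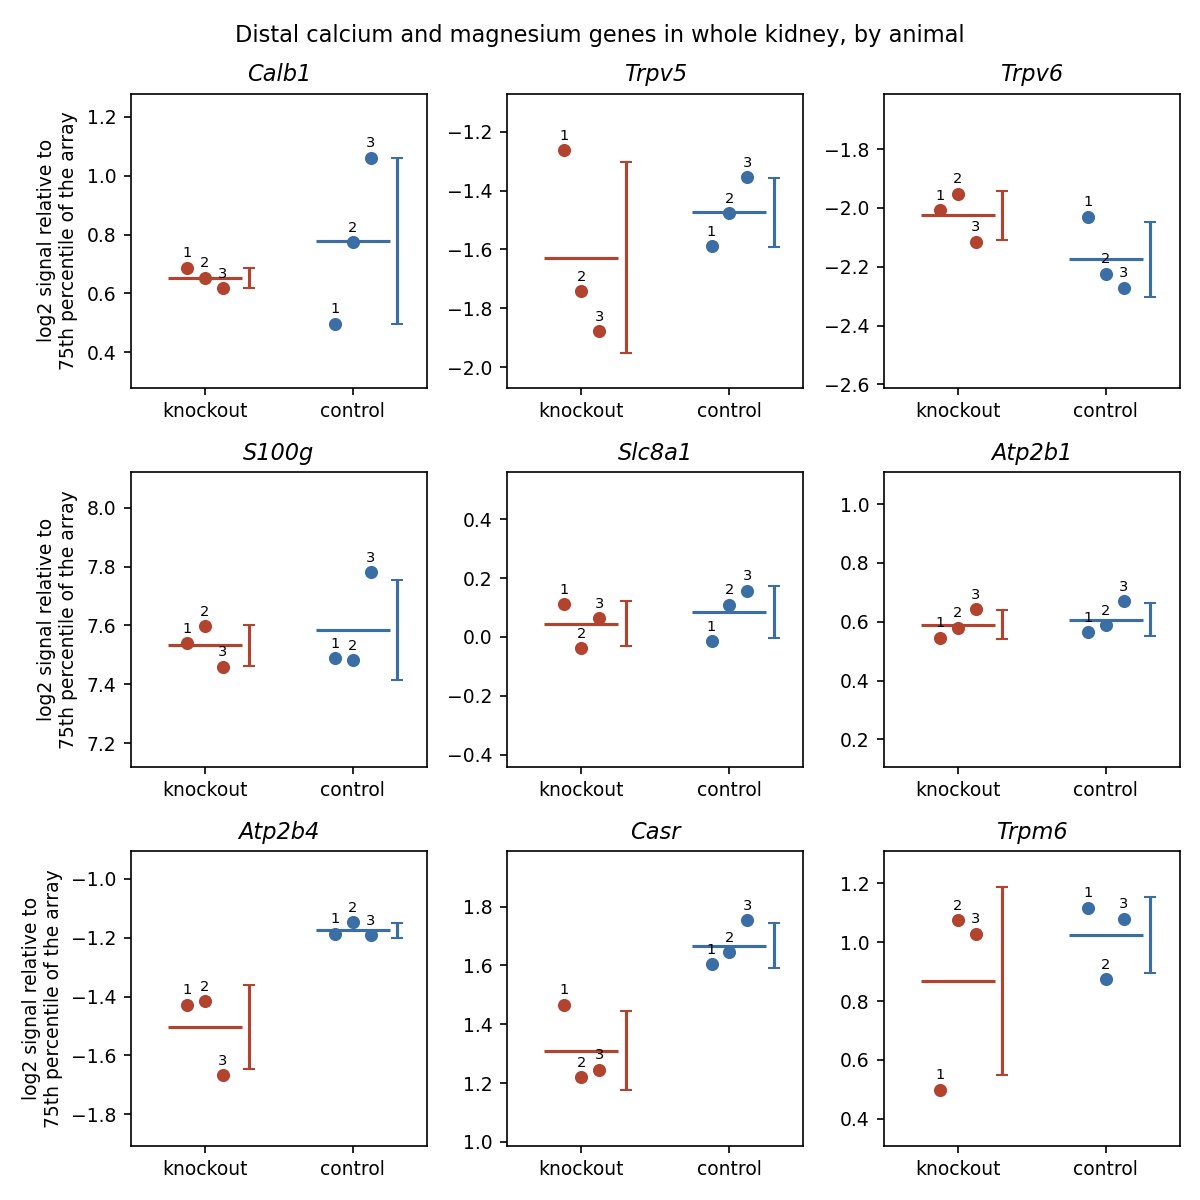
Normalised log2 signal of the 9 genes in each animal (vertical axis, relative to the 75th percentile of the array; each panel spans 1 log2 unit), with 3 knockouts left of 3 controls, numbered by replicate; horizontal lines are means and bars at the side are SD. Atp2b4 and Casr are the panels in which all knockouts lie below all controls, knockout 1 stands apart in Trpv5 and Trpm6, and control 3 is the highest array in Calb1 and S100g.

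Casr was at 1.47, 1.22 and 1.25 in the knockouts, against 1.60, 1.64 and 1.75 in the controls. All 3 knockouts lay below all 3 controls, with knockout 1 nearest to them. The difference was -0.36 ± 0.084 (SE; interval -0.56 to -0.15), or 21.9% less signal, with adjusted p = 0.215. It had the smallest unadjusted p of the 9, at rank 389 of 15309 genes, and Atp2b4 stood at rank 421. Within the first row of the slide knockout 1 minus the mean of the controls was -0.20 for Casr and -0.25 for Atp2b4. Across 18 alternative settings Casr ran from -0.43 to -0.20 (adjusted p from 0.0958 to 0.517 by limma). Atp2b4 ran from -0.39 to -0.25 (adjusted p from 0.131 to 0.543). The -0.39 is the mean of the Atp2b4 probes, which takes in the probe detected in 0 of 3 knockouts and kept through the controls alone. The summed signal of 5 markers of the thick ascending limb overlapped between the groups, at 431 to 474 in the knockouts and 447 to 463 in the controls, and also without Umod, which made up 82.5% to 85.3% of it. Of those markers Kcnj1, a potassium channel gene, was at -0.21 ± 0.065 (adjusted p = 0.295), with all knockouts below all controls, while Umod itself, the uromodulin gene, was at 0.019 ± 0.049.

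Trpm6, the apical magnesium channel gene of the distal convoluted tubule, was at 0.50, 1.08 and 1.03 in knockouts 1, 2 and 3, against 1.12, 0.88 and 1.08 in controls 1, 2 and 3. Knockout 1 was the lowest of all arrays, and the other knockouts lay among the controls. The difference was -0.16 ± 0.17 (interval -0.57 to 0.26; adjusted p = 0.759). It was 0.028 without knockout 1 and -0.53 for knockout 1 against the controls of its slide row. Pvalb, a calcium-binding protein gene of the early distal convoluted tubule, had its lowest array in the same animal, at 3.05, 3.92 and 3.90 in the knockouts, against 4.02, 3.97 and 4.26 in the controls. Slc12a3, the thiazide-sensitive sodium chloride transporter gene of that segment, did not, at 3.02, 2.77 and 2.65 in the knockouts, against 2.94, 2.88 and 3.09 in the controls.

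**Figure D2:**
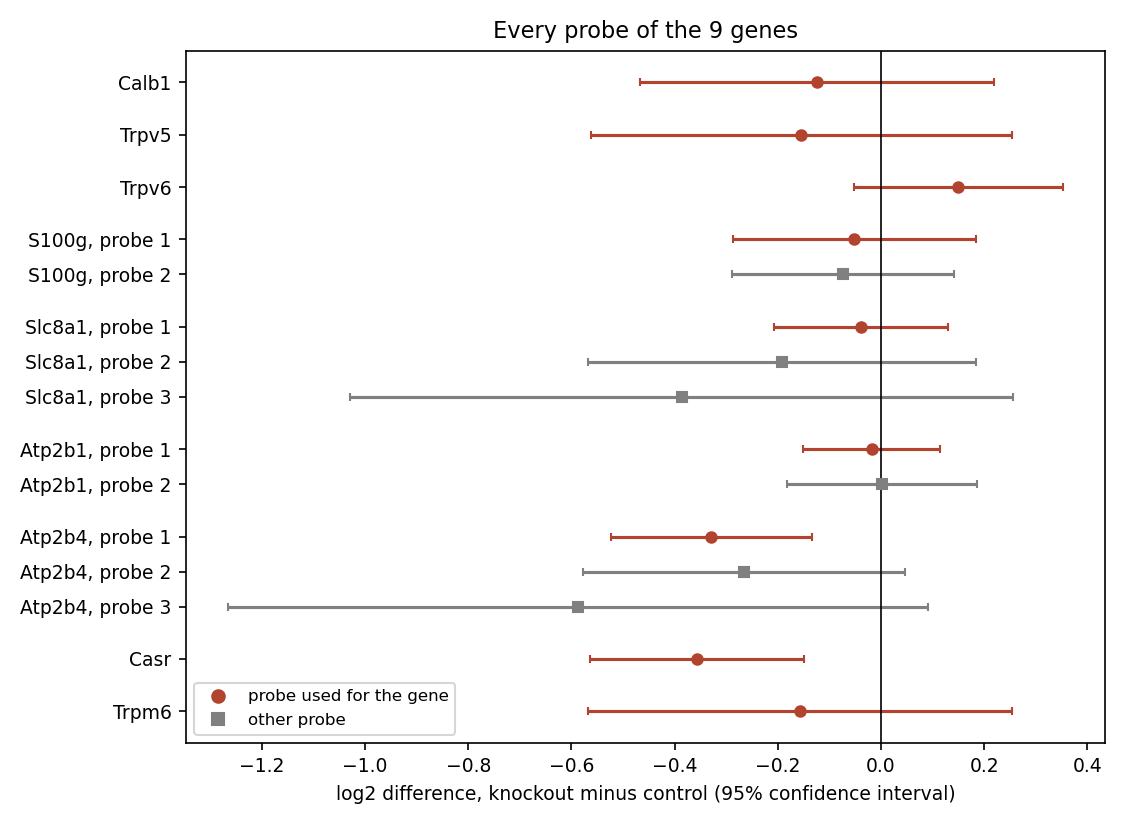
Log2 difference of knockout minus control (horizontal axis) for each of the 15 probes of the 9 genes, with 95% confidence intervals from limma; circles are the probe used for a gene and squares its other probes. The intervals of the probes used for Atp2b4 and Casr lie below 0, at -0.52 to -0.13 and -0.56 to -0.15, and those of the other probes include 0.

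Compared array by array, with each gene centred on its mean of 6 arrays, Casr and Atp2b4 were each other's nearest members. Their mean absolute difference was 0.089 on the log2 scale. The measure takes in their like group differences, -0.36 and -0.33, so this nearness is not separate from those. Calb1 was nearest to S100g, at 0.087, and Slc8a1 to Atp2b1, at 0.059. S100g itself was nearest to Atp2b1, at 0.081. Atp2b1, the steadiest member, was the nearest of Trpv6 and Trpm6 as well, and the measure is not scaled to a gene's range. The farthest apart were Trpv5 and Trpm6, at 0.31, with knockout 1 high in Trpv5 and low in Trpm6. The widest ranges over the 6 arrays were those of Trpm6, Trpv5 and Calb1, at 0.62, 0.62 and 0.56. Of all genes tested, those with the profile nearest to Trpm6 were Josd1, Fbxw15 and Tmem40, at mean absolute differences of 0.036 to 0.040. For Trpv5 they were Strn, Pisd-ps2 and A4galt, at 0.047 to 0.055, and for Calb1 they were Cd300lg, Lyplal1 and Ptgfr, at 0.027 to 0.031. With 6 arrays and 15309 genes these are descriptions of likeness alone.

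Of the genes that regulate calcium transport, 9 of 10 listed were tested, 3 were higher and 6 lower, 0 passed over all genes, and the median was -0.038. At an unadjusted p under 0.05 there was 1 higher and 1 lower. The higher one was Cyp24a1, the enzyme that degrades vitamin D, at 2.53, 2.54 and 2.45 in the knockouts, against 0.48, 1.35 and 1.60 in the controls. All knockouts lay above all controls, with a difference of 1.36 ± 0.28 (SE; adjusted p = 0.184). Without control 1 it was 1.03 with adjusted p = 0.0454, the 1 setting of 18 in which it passed. Cyp27b1, the enzyme that makes active vitamin D, was at -0.071, -1.64 and -1.56 in the knockouts, against -0.10, 0.51 and 0.75 in the controls. Knockout 1 lay just above control 1, so the groups overlapped (-1.48 ± 0.47; adjusted p = 0.299). Pth1r, the parathyroid hormone receptor gene, was at -0.13 ± 0.058 (adjusted p = 0.422).

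Of 15 further genes of calcium transport 13 were tested, 3 higher and 10 lower, 0 passed, 0 had an unadjusted p under 0.05, and the median was -0.030. Pvalb was at -0.46 ± 0.25 (adjusted p = 0.517), with -0.17 without knockout 1 and -1.03 with slide row as a block. Anxa2, an annexin that partners a protein of TRPV5 trafficking, was at 0.18 ± 0.14, with 0.064 without control 3 and -0.042 with slide row as a block. Slc8a2, an exchanger gene best known from brain, was at -4.27, -3.56 and -1.92 in the knockouts, against -3.90, -4.06 and -3.94 in the controls. Knockout 3 stood far above the rest and knockout 1 below every control (0.72 ± 0.57; adjusted p = 0.668), and the difference was 0.053 without knockout 3. All 13 genes of the magnesium list were tested, 4 higher and 9 lower, 0 passed, 1 of each direction had an unadjusted p under 0.05, and the median was -0.080. The smallest p in it was that of Slc41a1, a magnesium transporter gene, at -0.63, -0.68 and -0.67 in the knockouts, against -0.93, -0.83 and -0.82 in the controls. That made it 0.20 ± 0.051 higher (adjusted p = 0.231), with all knockouts above all controls. Kcnj10, a basolateral potassium channel gene on which distal magnesium uptake depends, was at -0.18 ± 0.068 (adjusted p = 0.368), and Magt1, a further magnesium transporter gene, at -0.14 ± 0.055 (adjusted p = 0.391). Both had all knockouts below all controls.

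**Figure D3:**
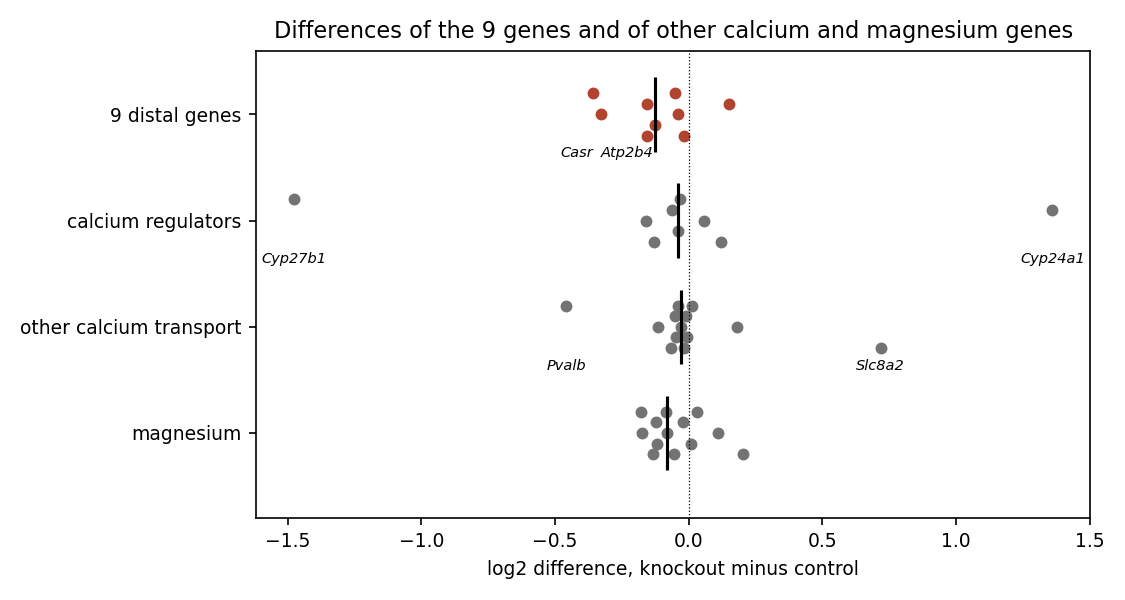
Log2 difference of knockout minus control (horizontal axis) for each gene tested of the 9 distal genes, the calcium regulators, the other calcium transport genes and the magnesium genes; dots are genes, offset vertically for legibility, and black bars are list medians. The medians are -0.12, -0.038, -0.030 and -0.080, and Cyp24a1 at 1.36 and Cyp27b1 at -1.48 lie outermost.

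Markers of the segments that hold these genes were summed in the same way, with 0 genes passing in any list. All 7 markers of the distal convoluted tubule that were tested, Trpm6 among them, were lower in the knockouts (median -0.15; 0 passed), between -0.46 for Pvalb and -0.014 for Tmem52b. Their summed signal was 27.7 to 33.6 in the knockouts and 35.02 to 40.7 in the controls, in multiples of the 75th percentile. Pvalb made up 29.8% to 46.9% of it. Without Pvalb, a sum chosen after the data were seen, the groups overlapped at 17.8 to 19.5 in the knockouts and 19.4 to 21.6 in the controls. For the connecting tubule 7 of 8 were lower (median -0.058), between -0.31 for Scnn1g, a sodium channel subunit gene, and 0.053 for Hsd11b2, which inactivates glucocorticoid. The sum of its 5 markers that are not among the 9 genes overlapped, at 271 to 299 in the knockouts and 295 to 365 in the controls. Klk1 made up 50.9% to 53.9% of the sum of all 8, and so a larger share of these 5. The sum of all 8 overlapped, and also did so without Klk1. The sums of proximal tubule markers overlapped, at 1559 to 1576 in the knockouts and 1503 to 1679 in the controls. Intercalated cell markers summed to 29.1 to 31.6 in the knockouts and 32.7 to 36.3 in the controls, but Slc26a4 made up 46.8% to 59.9% of that. Without it, a sum likewise chosen after the data were seen, the total was higher in every knockout. It was 15.5 to 16.8 in the knockouts and 13.6 to 14.6 in the controls. Of all 5 intercalated markers 2 were higher and 3 lower in the knockouts, with a median of -0.18. Leukocyte markers summed to 53.4 to 57.4 in the knockouts and 40.3 to 46.9 in the controls, and did not overlap without their brightest marker, Csf1r, either. The intercalated list ran from -0.45 for Slc26a4 to 0.31 for Foxi1, and the leukocyte list from 0.21 for Ptprc to 1.37 for Lyz2, with 0 passing in either. The sums of the principal cell, endothelial, mural and fibroblast, red cell, adipocyte and podocyte markers overlapped. The red cell sum was 206, 104 and 93.0 in knockouts 1, 2 and 3, against 181 to 242 in the controls. Fabp4 made up 84.4% to 96.8% of the adipocyte sum, which overlapped without it as well. All 3 tested markers of the red cell list were lower (median -0.72), as were all 3 of the adipocyte list (median -1.23). In the adipocyte list 1 marker had all knockouts below all controls. The part of any of these in the members' values was not tested.

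**Figure D4:**
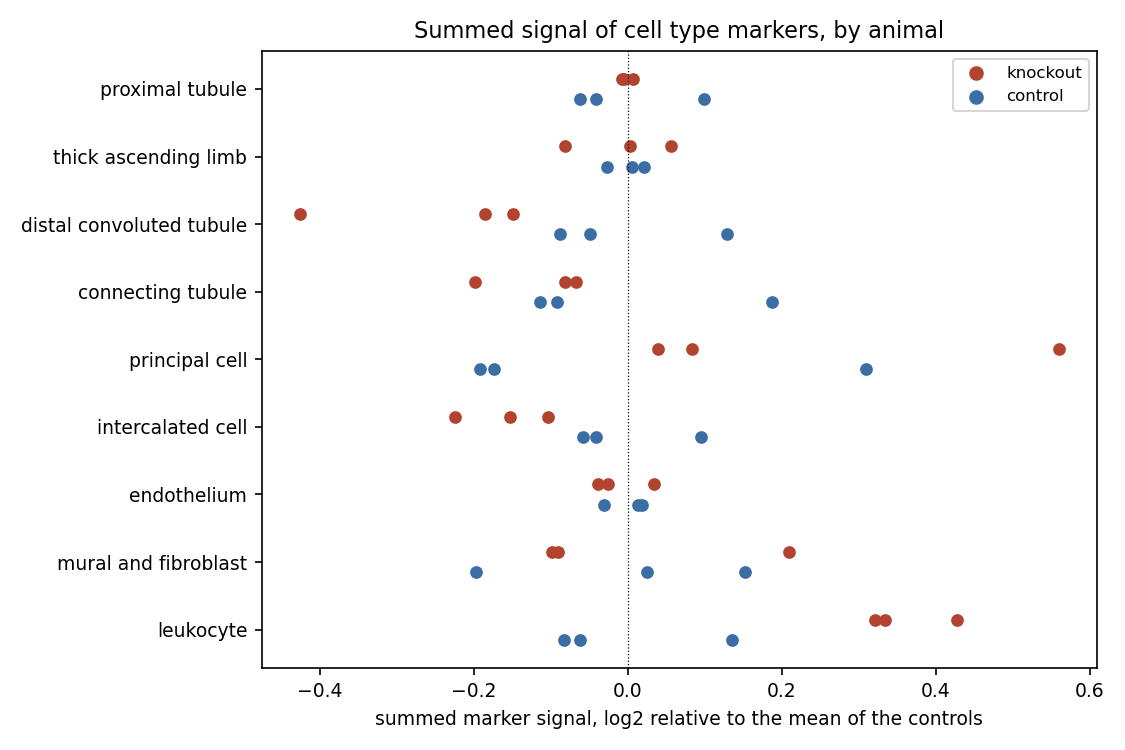
Summed linear signal of the markers of 9 cell types in each animal, as log2 relative to the mean of the controls (horizontal axis); red dots are knockouts and blue dots are controls. The sums do not overlap for the distal convoluted tubule and intercalated lists, which are lower in the knockouts, and for leukocytes, which are higher. Without Pvalb the first overlaps, and without Slc26a4 the intercalated sum is higher in the knockouts. Of all 5 intercalated markers 2 are higher and 3 lower in the knockouts.

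**Figure D5:**
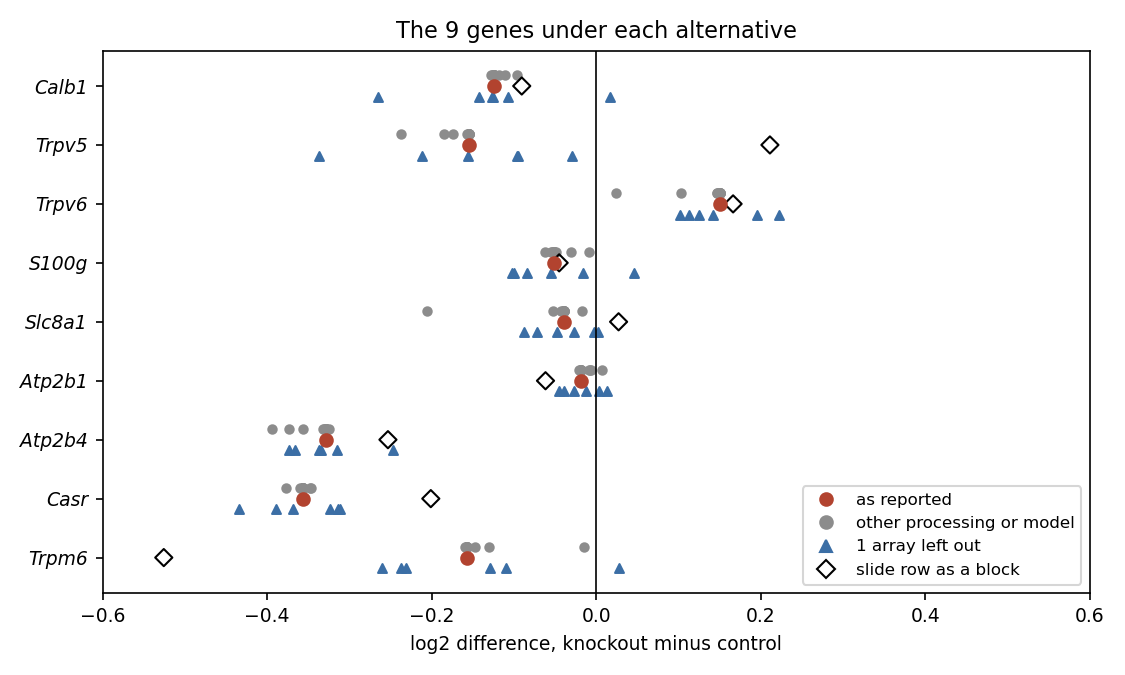
Log2 difference of knockout minus control (horizontal axis) for the 9 genes as reported, under other processing or models, with 1 array left out and with slide row as a block. Casr (-0.43 to -0.20) and Atp2b4 (-0.39 to -0.25) stay below 0 and Trpv6 (0.024 to 0.22) above it in all 18 settings. The other 6 genes cross 0 in at least 1. The -0.39 of Atp2b4 is the mean of its probes, among them 1 kept through the controls alone.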

How the data were processed

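RNA of each whole kidney was labelled with Cy3 for Agilent's SurePrint G3 mouse 8x60K array, per the labels. Spot intensity is linear and was made by the authors with Feature Extraction 10.7.1.1, as the headers state. Flags of 0 or 1 for each spot were used as deposited. The authors' deposited ratio per probe equalled the processed signal over 1 constant for each array, within 1% for 100% of the 13933 to 13936 probes above 1, and served as an alternative. How it was computed was not stated.

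Processed signals without outlier spots (92 to 151 an array) were taken as log2, averaged by probe and set relative to the array's 75th percentile. Of 55681 probes 32948 were kept, those above background in at least 50% of spots on every array of either group. The RefSeq table of GRCm38.p6 gave names, chromosomes and promoter windows, and the brightest kept probe stood for a gene. Knockouts and controls were compared over 15309 genes with limma 3.58.1 in R 4.3.3, tested on simulated data, with 18 alternatives. An exact permutation test of 3 against 3 cannot go below p = 0.1. A probe not above background gives only a bound, from the higher of its own and the lowest detected signal. The members, lists and tests were chosen with earlier results of these data known. Named are all members and the 3 genes of smallest p of each calcium or magnesium list. The extremes are named for the marker lists of segments that hold a member or whose sums did not overlap. Also named is the brightest marker of a list where its sum without that marker is described. The others named are the 3 nearest profiles of the 3 members of widest range, and Slc12a3, chosen after its values were seen.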

Additional observations from a re-analysis of the deposited data

How the results depend on the processing

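None of the 9 genes was called in any of 18 alternatives. With slide row as a block, which sets knockout 1 alone against the controls, Trpv5 turned to 0.21, Slc8a1 to 0.027, the magnesium list's median to 0.033, Anxa2 to -0.042 and Slc8a2 to -0.30. Cyp27b1 was then -0.46, Kcnj10 -0.050, Pvalb -1.03, Magt1 -0.22 and Pth1r -0.20. With array weights Atp2b1 turned to 0.0077 and Trpm6 was -0.014, and with normexp Trpv6 was 0.024. Slc8a1 was -0.21 when its probes were averaged, among them 1 kept through the controls alone. With 1 array left out, Calb1 ran from -0.27 to 0.017 and S100g from -0.10 to 0.047, both turning without control 3. Trpv5 ran from -0.34 without knockout 1 to -0.029 without knockout 3. Slc8a1 ran from -0.088 to 0.0028, turning without knockout 2, and Trpm6 from -0.26 to 0.028, turning without knockout 1. Atp2b1 ran from -0.045 to 0.013, turning without control 3 (0.013) and without knockout 1 (0.0037). The calcium regulators' median ran from -0.083 to 0.0051, turning without control 3. The magnesium median ran from -0.092 to -0.0077, and that of other calcium transport from -0.036 to 0.012, turning without control 2 (0.0015) or knockout 2 (0.012). Of the calcium regulators 0 to 1 passed, the 1 without control 1 being Cyp24a1. Over all genes 16 were called higher and 10 lower. These became 51 and 38 with array weights, 5 and 6 with quantile normalisation, 27 and 30 with a trended and robust variance, 64 higher with no filter and 5 higher with slide row as a block. With 1 array left out 0 to 27 were higher and 0 to 30 lower, with 0 in all without control 2 or control 3 and 1 without knockout 2 or knockout 3. The cause was not tested. Deviations of same-numbered animals correlated at 0.10, -0.096 and -0.025, and no animal but knockout 1 and control 1 correlated best with its own number. With 3 arrays a group these values cannot decide whether the numbers pair the animals. With the replicate number as a block 0 genes were called higher and 0 lower.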
